A study of Mus musculus with 18 samples.

Results

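The interferon-stimulated genes described here were taken from a list of 39 gene names, which was drawn up with earlier results of these data known. Among those results was the opposite movement of these genes in the knockdowns described below. Of the 39 names, 36 could be read on the arrays, out of 19938 genes in all. Each of the 36 had a probe set, a group of array probes for a single transcript, annotated to that gene alone. Isg15 and Gbp2 lay only on probe sets shared with other genes and Ifi44 matched none, so these 3 were not analysed here. Irf1 had 2 probe sets, of which the brighter was used, and every other member had 1.

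Interferons are secreted when a cell senses viral nucleic acid, and they act back on the same cell and on its neighbours through paired receptor chains. The receptors carry Janus kinases, which phosphorylate STAT proteins, and STAT2 with IRF9 is part of a complex that binds the interferon-stimulated response element, a GAAA repeat in the promoters of the target genes. The products degrade viral RNA, block translation, hold virus particles at the membrane, present antigen and attract immune cells. Several of them, among them IRF7, STAT2, IRF9 and the RNA sensors, are part of the pathway themselves. Fibroblasts hold the whole pathway and are known to keep a low level of these transcripts without infection.

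The arrays were made from immortalized mouse embryonic fibroblasts (MEF) of an ICR mouse background. All cells, the controls included, had been given an adenovirus that expresses a short hairpin RNA, for 2 h, followed by 70 h in medium. The hairpin was scrambled (SCR), or was directed against HSF1, the main transcription factor of the heat shock response (HSF1-KD), or against SSBP1, the single-stranded DNA-binding protein of mitochondria (SSBP1-KD), and 1 hairpin was used for each target. Cultures then stayed at 37 °C (Cont) or spent 1 h at 42 °C (HS), which gave 6 groups of 3 arrays, 18 in all, each made from 200 ng of total RNA. Nothing in the labels says that the 3 arrays of a group came from separate cultures, and p-values therefore measure only the spread between these samples.

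Values are log2 signals normalized by RMA, a scale on which 1 unit is a 2-fold difference. Groups were compared with limma, a linear model fitted to all probe sets, and an adjusted p is its p-value corrected for the number of probe sets. Array medians lay between 7.88 and 7.94 on the log2 scale, and arrays of one group correlated at 0.985 or above over all probe sets. As a check of the labels, Hspa1a, the main heat-inducible HSP70 gene, rose with heat shock by 4.31 on the log2 scale in SCR, by 0.55 in HSF1-KD and by 3.42 in SSBP1-KD. Ssbp1 itself differed between SSBP1-KD and SCR by -0.41 in HS (adjusted p = 0.00155) and by -0.22 in Cont (adjusted p = 0.0555), and Hsf1 was not analysed here because no probe set carried its name alone. The first SSBP1-KD Cont array stood farther from its group than any other, with a mean absolute residual of 0.152 against 0.07 to 0.11 on all other arrays. The 10 fibroblast markers were bright, at a median percentile of 95.7 among all probe sets.

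A promoter window was found in the RefSeq tables for 26 of the 36 genes, 250 bases before to 50 bases after a start site of build GRCm38.p6. In 11 of these 26 genes, or 42.3%, the window held the core of the response element, GAAANNGAAA on either strand, against 3.99% of all 27025 genes. A GAS site (TTCNNNGAA), the element of interferon gamma responses, was present in 6 genes, or 23.1%, against 9.55% of all genes. A heat shock element, the binding site of HSF1 (GAANNTTCNNGAA or TTCNNGAANNTTC), was present in 1 gene, Bst2, or 3.85% against 0.662% of all genes. One GAS match, that of Bst2, shared 3 bases with a response element match, and the heat shock element of Bst2 shared none.

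The windows of a few genes are printed 5′ to 3′ on the gene's own strand, with every match to the response element core, or to its reverse complement, in capitals. Those of Rsad2 (chr12:26456403-26456702, minus strand), Cxcl10 (chr5:92348840-92349139, minus strand) and Gbp3 (chr3:142559794-142560093, plus strand) are shown because these 3 genes differed widely between the knockdowns and carry the element. The matches begin 120, 213, and 45 and 39 bases before the start, in that order. Bst2 (chr8:71537423-71537722, minus strand) is shown for its 2 overlapping response elements, 130 and 124 bases before the start, beside a heat shock element that begins 166 bases before it. Tap1 (chr17:34187306-34187605, plus strand) is shown as a gene with no match that was lower in both knockdowns, and its window shares 275 bases with that of Psmb9 on the other strand.
Rsad2: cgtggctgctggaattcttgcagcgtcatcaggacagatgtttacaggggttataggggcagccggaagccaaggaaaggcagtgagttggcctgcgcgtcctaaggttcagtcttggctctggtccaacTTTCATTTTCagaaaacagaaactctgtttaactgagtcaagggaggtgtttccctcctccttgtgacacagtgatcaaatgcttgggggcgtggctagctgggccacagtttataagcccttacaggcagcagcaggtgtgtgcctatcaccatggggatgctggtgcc
Cxcl10: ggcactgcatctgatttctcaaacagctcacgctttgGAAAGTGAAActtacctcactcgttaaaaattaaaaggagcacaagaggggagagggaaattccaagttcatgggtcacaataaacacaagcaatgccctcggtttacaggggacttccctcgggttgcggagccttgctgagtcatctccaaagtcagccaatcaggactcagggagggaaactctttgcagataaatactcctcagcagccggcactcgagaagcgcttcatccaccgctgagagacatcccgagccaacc
Gbp3: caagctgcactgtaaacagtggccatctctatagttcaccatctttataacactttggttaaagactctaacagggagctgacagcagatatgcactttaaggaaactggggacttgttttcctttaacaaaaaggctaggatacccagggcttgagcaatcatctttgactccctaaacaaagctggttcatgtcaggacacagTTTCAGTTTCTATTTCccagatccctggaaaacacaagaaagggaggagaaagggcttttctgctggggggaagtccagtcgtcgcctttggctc
Bst2: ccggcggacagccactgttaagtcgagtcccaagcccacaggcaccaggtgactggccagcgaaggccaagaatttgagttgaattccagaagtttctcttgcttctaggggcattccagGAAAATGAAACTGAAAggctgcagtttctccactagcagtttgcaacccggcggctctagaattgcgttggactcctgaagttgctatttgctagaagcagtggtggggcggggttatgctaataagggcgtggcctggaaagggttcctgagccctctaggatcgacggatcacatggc
Tap1: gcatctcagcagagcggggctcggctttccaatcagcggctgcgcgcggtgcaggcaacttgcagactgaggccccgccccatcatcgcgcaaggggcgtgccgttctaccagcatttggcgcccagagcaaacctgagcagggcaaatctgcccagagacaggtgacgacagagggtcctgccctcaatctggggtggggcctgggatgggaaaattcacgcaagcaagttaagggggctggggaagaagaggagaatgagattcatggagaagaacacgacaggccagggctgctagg

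As a group, the interferon-stimulated genes were higher than SCR in HSF1-KD cells and lower than SCR in SSBP1-KD cells, with and without heat shock. The largest differences between the 2 knockdowns were those of Mx2, Oas2, Irf7, Rsad2 and Gbp3, each more than 2-fold in Cont. On each array the mean deviation of the 36 genes from their SCR Cont means was taken, on the log2 scale. It was -0.06 to 0.05 on the 3 SCR Cont arrays, 0.30 to 0.33 on the HSF1-KD Cont arrays and -0.40 to -0.31 on the SSBP1-KD Cont arrays. In HS it was -0.16 to -0.05 in SCR, 0.26 to 0.32 in HSF1-KD and -0.41 to -0.37 in SSBP1-KD. The 3 kinds of cell did not overlap at either temperature. Because the opposite movement was known when the list was drawn up, these values and the counts below describe it and are no independent test of it. Since RNA of whole cultures was measured, fewer cells with a transcript and less of it per cell cannot be told apart.

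**Figure D1:**
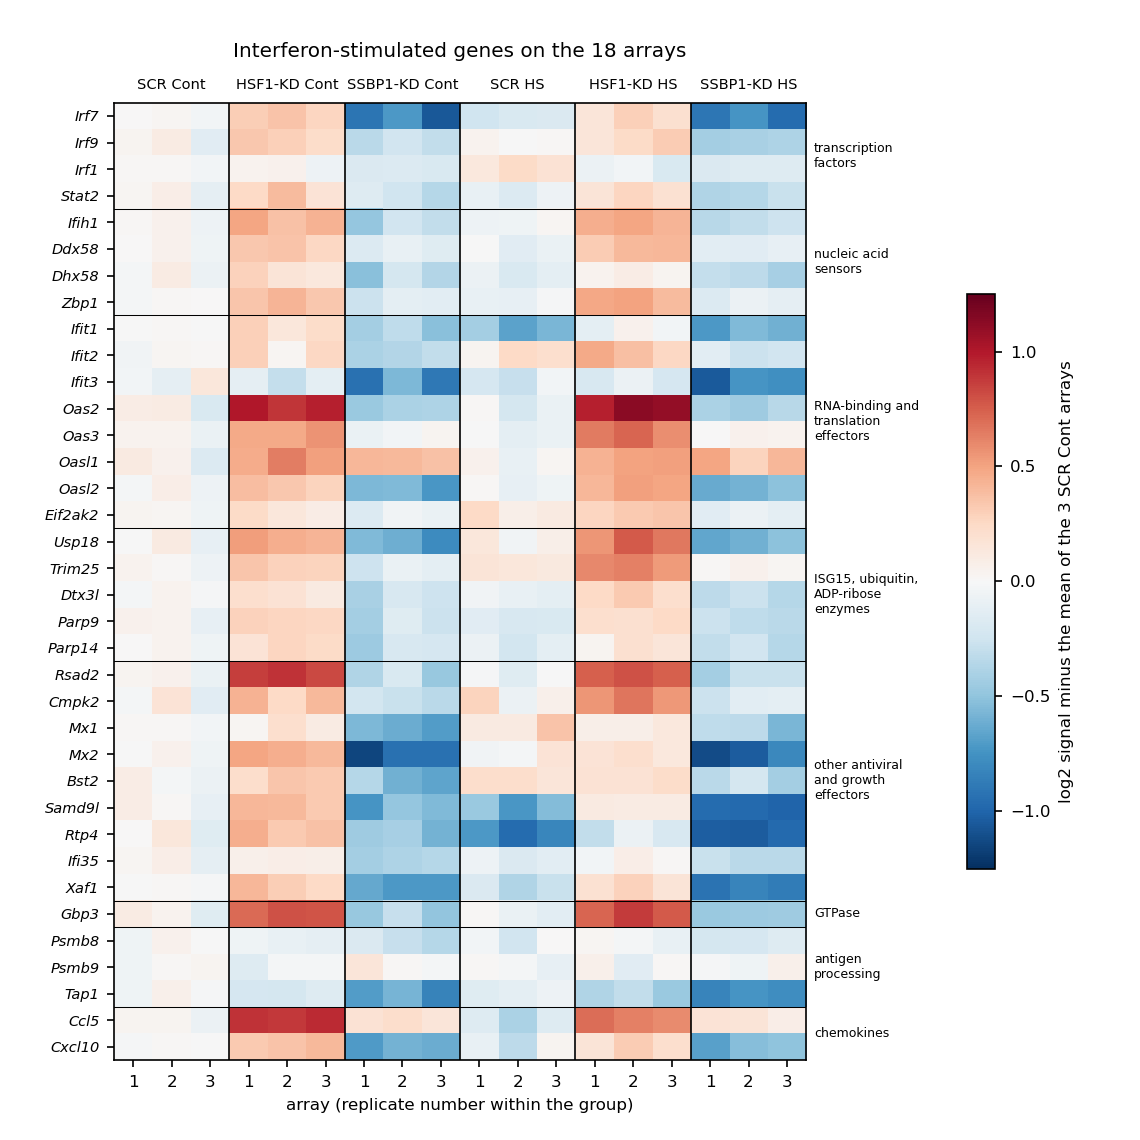
Heat map of the 36 genes (rows, grouped by role) on the 18 arrays (columns, 3 replicates in each of the 6 groups); colour gives the log2 signal minus the mean of the 3 SCR Cont arrays. Most rows are red in both HSF1-KD groups and blue in both SSBP1-KD groups. Oasl1 and Ccl5 are red in both knockdowns, and Tap1 and Ifit3 are blue in both.

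In HSF1-KD Cont against SCR Cont, 26 of the 36 genes were called higher at an adjusted p under 0.05 by limma, where 10.9% of all 19938 genes were called higher, and 1 was called lower, where 10.1% of all genes were. The median difference of the 36 genes was 0.31 on the log2 scale, against 0.03 over all genes. In HSF1-KD HS against SCR HS, 25 were called higher (13.1% of all genes) and 2 lower (10.7% of all genes), with a median of 0.41 against 0.03. Of the genes called higher, 24 were called at both temperatures, which is 92.3% of those called in Cont and 96% of those called in HS. Mx2 and Bst2 were called in Cont alone and Eif2ak2 in HS alone.

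In SSBP1-KD Cont against SCR Cont, 30 of the 36 genes were called lower (16.5% of all genes) and 2 higher (14.6% of all genes), with a median of -0.35 against 0.05 over all genes. In SSBP1-KD HS against SCR HS, 23 were called lower (14.4% of all genes) and 2 higher (14.3% of all genes), with a median of -0.27 against 0.03. The genes called lower at both temperatures numbered 22, or 73.3% of those called in Cont and 95.7% of those called in HS. Those called lower in Cont alone were Cmpk2, Ifit1, Parp14, Parp9, Psmb8, Rtp4, Trim25 and Zbp1, and Eif2ak2 was called in HS alone.

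Both knockdowns were compared with the same SCR arrays, and the difference between them was therefore tested directly. In Cont, 34 of the 36 genes were called lower in SSBP1-KD than in HSF1-KD, where 16.6% of all genes were, and 0 were called higher, where 12.9% of all genes were. In HS, 32 were called lower (14.1% of all genes) and 0 higher (11.6% of all genes). The median difference was -0.60 in Cont and -0.58 in HS, against 0.02 and 0.00 over all genes. At an unadjusted p under 0.05, limma called 0 genes higher at both temperatures, and so did the methods' t-test. Oasl1 and Psmb9 were not called in Cont, and neither these nor Irf1 and Psmb8 were called in HS; the Cont call of Psmb8 (-0.19) was lost on leaving out any of 10 arrays (adjusted p = 0.0509 to 0.147). Leaving out any 1 array kept the count lower at 33 to 34 in Cont and at 32 to 33 in HS, and without the first SSBP1-KD Cont array it was 34 in Cont.

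**Figure D2:**
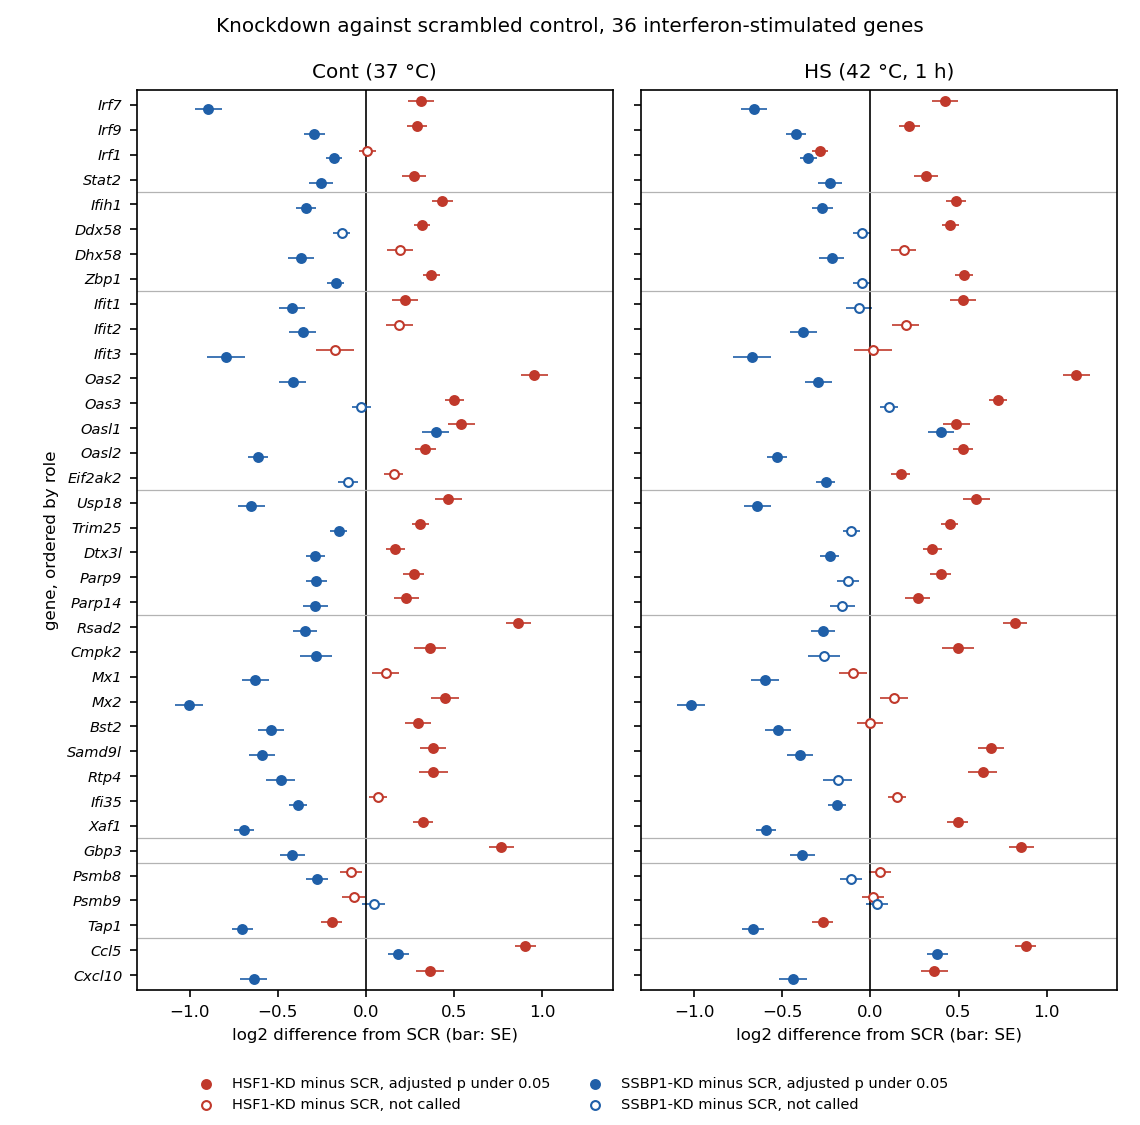
Log2 difference from SCR for each of the 36 genes (rows, by role) in Cont (left) and HS (right); red points are HSF1-KD and blue points SSBP1-KD, bars are 1 SE, and filled points have an adjusted p under 0.05. In Cont the red points run from -0.20 to 0.95 and the blue points from -1.004 to 0.40, and for all but Psmb9 the blue point lies to the left of the red one.

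The 4 transcription factors of the list carry the interferon signal to the promoters. Irf7, the factor that amplifies type I interferon production, read 9.56, 9.59 and 9.53 on the SCR Cont arrays, 9.87, 9.92 and 9.83 on the HSF1-KD Cont arrays and 8.65, 8.84 and 8.50 on the SSBP1-KD Cont arrays. In HS it read 9.31, 9.37 and 9.38 in SCR, 9.71, 9.86 and 9.76 in HSF1-KD and 8.66, 8.82 and 8.60 in SSBP1-KD. All HSF1-KD arrays lay above and all SSBP1-KD arrays below the SCR arrays of the same temperature. The log2 difference from SCR in Cont was 0.31 in HSF1-KD (SE 0.0749, adjusted p = 0.0095) and -0.89 in SSBP1-KD (adjusted p = 1.16e-06), and the knockdowns differed by -1.21, or 2.31-fold.

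Irf9 and Stat2 encode parts of the complex that binds the response element. Irf9 read 10.13, 10.19 and 9.95 in SCR Cont, 10.43, 10.39 and 10.32 in HSF1-KD Cont and 9.75, 9.85 and 9.78 in SSBP1-KD Cont, and 10.13, 10.09 and 10.10 in SCR HS, 10.24, 10.33 and 10.41 in HSF1-KD HS and 9.66, 9.69 and 9.70 in SSBP1-KD HS. Stat2 read 10.92, 10.97 and 10.78 in SCR Cont, 11.13, 11.28 and 11.06 in HSF1-KD Cont and 10.72, 10.64 and 10.53 in SSBP1-KD Cont, and 10.79, 10.72 and 10.82 in SCR HS, 11.05, 11.15 and 11.08 in HSF1-KD HS and 10.51, 10.53 and 10.61 in SSBP1-KD HS. Both genes were separated in the same order, with no overlap of arrays, at both temperatures. The knockdowns differed in Cont by -0.58 for Irf9 (SE 0.0589, adjusted p = 4.51e-06) and by -0.53 for Stat2 (SE 0.0675, adjusted p = 4.14e-05). Against SCR the differences of Stat2 were 0.27 and -0.25 in Cont and 0.31 and -0.23 in HS, the HSF1-KD value first. The HSF1-KD call of Stat2 in Cont was lost without the third SCR array (0.22, adjusted p = 0.066) or the second HSF1-KD array (0.21, adjusted p = 0.0667). Its SSBP1-KD call in Cont was lost without the second SCR array (-0.21, adjusted p = 0.0592) or the third SSBP1-KD array (-0.20, adjusted p = 0.0536). In HS its SSBP1-KD call was lost without the first or the third SCR array (-0.22 and -0.20) or the first or second SSBP1-KD array (-0.21 and -0.22), at adjusted p = 0.0609 to 0.0934. The HSF1-KD call of Irf9 in HS, a difference of 0.22, was lost without the second SCR HS array (0.21, adjusted p = 0.0584) or the third HSF1-KD HS array (0.18, adjusted p = 0.0775).

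Irf1, a factor that answers mainly to interferon gamma through a GAS site, had another pattern. It read 10.29, 10.29 and 10.24 in SCR Cont, 10.31, 10.32 and 10.21 in HSF1-KD Cont and 10.09, 10.10 and 10.08 in SSBP1-KD Cont, and 10.41, 10.51 and 10.45 in SCR HS, 10.20, 10.23 and 10.08 in HSF1-KD HS and 10.09, 10.11 and 10.11 in SSBP1-KD HS. In Cont the SCR and HSF1-KD arrays overlapped and the SSBP1-KD arrays lay below both, whereas in HS both knockdowns lay below SCR and overlapped each other. The difference from SCR in HS was -0.29 in HSF1-KD (SE 0.0471, adjusted p = 0.000512) and -0.35 in SSBP1-KD (adjusted p = 6.95e-05). The second, dimmer Irf1 probe set had group means of 7.93 to 8.07, and with the mean of both probe sets the SSBP1-KD difference in Cont, -0.18, became -0.09 (adjusted p = 0.314).

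The sensors detect viral nucleic acid in the cytosol. Ifih1 (MDA5) and Ddx58 (RIG-I), helicases that bind double-stranded and uncapped RNA, were called higher in HSF1-KD Cont by 0.43 and 0.32, as was Zbp1, which senses Z-form nucleic acid, by 0.37. In SSBP1-KD Cont, Ifih1 (-0.34), Zbp1 (-0.17) and Dhx58 (-0.37), a helicase that modulates the other 2, were called lower. Ddx58 just missed the threshold there (-0.14, adjusted p = 0.0524), and the Zbp1 call was lost without the second or the third SCR array or the first SSBP1-KD array, at -0.17 to -0.12 and an adjusted p of 0.0568 to 0.0817. The Dhx58 call in SSBP1-KD HS (-0.22) was lost on leaving out any of 9 arrays (adjusted p = 0.0505 to 0.144). All 4 sensors were lower in SSBP1-KD than in HSF1-KD at both temperatures, with differences of -0.56, -0.45, -0.54 and -0.77 in Cont for Dhx58, Ddx58, Zbp1 and Ifih1.

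The oligoadenylate synthetases make the second messenger that activates RNase L. Oas2 read 9.05, 9.06 and 8.78 in SCR Cont, 9.97, 9.85 and 9.93 in HSF1-KD Cont and 8.50, 8.57 and 8.58 in SSBP1-KD Cont, and 8.97, 8.74 and 8.88 in SCR HS, 9.94, 10.09 and 10.06 in HSF1-KD HS and 8.57, 8.52 and 8.61 in SSBP1-KD HS. Its HSF1-KD arrays stood about 1 log2 unit above SCR, the widest gap to SCR of any member in HSF1-KD. That gap was 0.95 in Cont (SE 0.077, adjusted p = 1.41e-06) and 1.17 under heat shock (adjusted p = 1.15e-07), and the SSBP1-KD differences were -0.41 and -0.30. The latter was not called without the first SCR HS array (-0.24, adjusted p = 0.0541). Oas3, a second synthetase, was called higher in HSF1-KD by 0.50 in Cont and 0.72 in HS, but was not called in SSBP1-KD, where it differed from SCR by -0.03 and 0.11.

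The 2 synthetase-like genes of the list parted. Oasl2 read 11.28, 11.39 and 11.25 in SCR Cont, 11.70, 11.64 and 11.59 in HSF1-KD Cont and 10.74, 10.75 and 10.58 in SSBP1-KD Cont, and 11.32, 11.20 and 11.25 in SCR HS, 11.73, 11.82 and 11.80 in HSF1-KD HS and 10.67, 10.71 and 10.79 in SSBP1-KD HS. Its 3 kinds of cell did not overlap, and the knockdowns differed by -0.95 in Cont (SE 0.0585, adjusted p = 5.71e-08) and -1.06 in HS. Oasl1, which restrains translation of Irf7, read 8.66, 8.61 and 8.38 in SCR Cont, 9.01, 9.19 and 9.06 in HSF1-KD Cont and 8.96, 8.95 and 8.92 in SSBP1-KD Cont, and 8.61, 8.46 and 8.57 in SCR HS, 8.98, 9.05 and 9.06 in HSF1-KD HS and 9.04, 8.83 and 8.96 in SSBP1-KD HS. Both knockdowns lay above SCR on every array at both temperatures. Oasl1 was called higher in SSBP1-KD by 0.40 in Cont (SE 0.0755, adjusted p = 0.00127) and 0.40 in HS, and in HSF1-KD by 0.54 and 0.49.

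The IFIT proteins bind viral RNA and stop its translation. All 3 were lower in SSBP1-KD Cont, at -0.42 for Ifit1, -0.36 for Ifit2 and -0.80 for Ifit3 (adjusted p = 0.000586, 0.00314 and 8.69e-05). In HSF1-KD they were less uniform: Ifit1 differed from SCR by 0.22 in Cont, at an adjusted p of 0.0499 that 13 of the 18 left-out arrays moved past 0.05 (0.0504 to 0.149), and by 0.52 in HS (adjusted p = 0.000128). Ifit2 and Ifit3 were not called in HSF1-KD, at 0.19 and -0.18 in Cont. Eif2ak2 (PKR), the kinase that shuts down translation on double-stranded RNA, gave differences of 0.16 in HSF1-KD Cont and -0.10 in SSBP1-KD Cont, neither of them called, and its HSF1-KD call in HS (0.17) was lost on leaving out any of 12 arrays. The knockdowns differed in Eif2ak2 by -0.26.

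Among the enzymes of ISG15, ubiquitin and ADP-ribose, all 5 measured genes were called higher in HSF1-KD at both temperatures. The shares of all genes called higher were 10.9% in Cont and 13.1% in HS. In SSBP1-KD, all 5 were called lower in Cont (16.5% of all genes) and 2 in HS (14.4% of all genes). Usp18, the protease that removes ISG15 and dampens receptor signalling, read 10.49, 10.61 and 10.40 in SCR Cont, 11.02, 10.96 and 10.93 in HSF1-KD Cont and 9.95, 9.89 and 9.71 in SSBP1-KD Cont, and 10.64, 10.46 and 10.57 in SCR HS, 11.05, 11.27 and 11.16 in HSF1-KD HS and 9.85, 9.90 and 9.99 in SSBP1-KD HS. Its groups were fully separated, with SSBP1-KD 2.17-fold below HSF1-KD in Cont and 2.37-fold below it in HS (SE 0.0761 on the log2 scale, adjusted p = 1.38e-07 and 6.36e-08). Trim25, the ubiquitin ligase that activates RIG-I, differed from SCR by 0.31 in HSF1-KD Cont and -0.15 in SSBP1-KD Cont, the latter no longer called without the first or second SCR array or the first SSBP1-KD array (-0.15 to -0.10, adjusted p = 0.0866 to 0.122). Dtx3l and Parp9, which work as one ubiquitin ligase and ADP-ribosyltransferase pair, and Parp14 differed from SCR by 0.17, 0.27 and 0.23 in HSF1-KD Cont and by -0.29, -0.28 and -0.29 in SSBP1-KD Cont. The HSF1-KD calls of Dtx3l and Parp14 in Cont were near the threshold (adjusted p = 0.0483 and 0.0387) and were lost on leaving out any of 15 and of 6 arrays (adjusted p up to 0.141 and 0.133). The HS call of Parp14 was lost without the second SCR array (0.22, adjusted p = 0.0772) or the second HSF1-KD array (0.23, adjusted p = 0.0728).

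The other antiviral effectors and growth inhibitors were 9 genes. Of these, 7 were called higher in HSF1-KD Cont (10.9% of all genes) and 9 lower in SSBP1-KD Cont (16.5% of all genes). Mx2, a dynamin-like GTPase that restricts viruses, read 8.34, 8.40 and 8.28 in SCR Cont, 8.83, 8.79 and 8.74 in HSF1-KD Cont and 7.19, 7.40 and 7.41 in SSBP1-KD Cont, and 8.29, 8.32 and 8.51 in SCR HS, 8.51, 8.54 and 8.47 in HSF1-KD HS and 7.22, 7.30 and 7.54 in SSBP1-KD HS. Its SSBP1-KD arrays stood about 1 log2 unit below SCR at both temperatures, and its HSF1-KD arrays were above SCR in Cont but overlapped SCR in HS. SSBP1-KD differed from SCR by -1.004 in Cont and -1.02 in HS (SE 0.0811, adjusted p = 8.19e-07 and 8.72e-07), and HSF1-KD differed by 0.45 in Cont (adjusted p = 0.00133) and 0.13 in HS (adjusted p = 0.33). Mx1, its relative, was dim, at percentile 26.9 of all probe sets, and was called lower in SSBP1-KD Cont, at -0.63 and not called in HSF1-KD.

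Rsad2 (viperin), a radical SAM enzyme that makes a chain-terminating nucleotide, read 10.60, 10.61 and 10.48 in SCR Cont, 11.43, 11.47 and 11.39 in HSF1-KD Cont and 10.19, 10.38 and 10.09 in SSBP1-KD Cont, and 10.55, 10.41 and 10.56 in SCR HS, 11.31, 11.36 and 11.31 in HSF1-KD HS and 10.14, 10.28 and 10.28 in SSBP1-KD HS. The groups did not overlap, and most of the gap between the knockdowns lay on the HSF1-KD side. Its difference from SCR in Cont was 0.86 in HSF1-KD (SE 0.0691, adjusted p = 1.32e-06) and -0.35 in SSBP1-KD (adjusted p = 0.00176). In HS the SSBP1-KD difference was -0.27, which was not called without the first SSBP1-KD HS array (-0.22, adjusted p = 0.0547). Cmpk2, the mitochondrial nucleotide kinase that neighbours Rsad2 and feeds the same reaction, was called higher in HSF1-KD Cont by 0.37 and lower in SSBP1-KD Cont, at -0.28. The first call was lost without the third SCR array (0.29, adjusted p = 0.0643), and the second without the first or second SCR array or the second or the third SSBP1-KD array (-0.30 to -0.20, adjusted p = 0.0637 to 0.159).

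Xaf1, which promotes apoptosis, read 10.37, 10.38 and 10.35 in SCR Cont, 10.78, 10.68 and 10.62 in HSF1-KD Cont and 9.72, 9.65 and 9.65 in SSBP1-KD Cont, and 10.19, 9.99 and 10.09 in SCR HS, 10.56, 10.66 and 10.53 in HSF1-KD HS and 9.44, 9.55 and 9.49 in SSBP1-KD HS. Samd9l, a cytoplasmic restriction factor of poxviruses, read 9.06, 8.98 and 8.86 in SCR Cont, 9.39, 9.37 and 9.29 in HSF1-KD Cont and 8.23, 8.49 and 8.42 in SSBP1-KD Cont, and 8.51, 8.24 and 8.42 in SCR HS, 9.08, 9.07 and 9.07 in HSF1-KD HS and 8.01, 8.0001 and 7.97 in SSBP1-KD HS. Rtp4, an interferon-induced transmembrane protein, read 9.90, 10.03 and 9.74 in SCR Cont, 10.34, 10.22 and 10.26 in HSF1-KD Cont and 9.44, 9.48 and 9.30 in SSBP1-KD Cont, and 9.17, 8.93 and 9.08 in SCR HS, 9.58, 9.82 and 9.69 in HSF1-KD HS and 8.86, 8.85 and 8.92 in SSBP1-KD HS. In all 3 genes HSF1-KD lay above SCR and SSBP1-KD below it on every array of the same temperature. The knockdowns differed in Cont by -1.02 for Xaf1, -0.97 for Samd9l and -0.86 for Rtp4 (SE 0.0572, 0.0737 and 0.0826, adjusted p = 3.08e-08, 3.58e-07 and 2.66e-06). Although the arrays were separate, the SSBP1-KD difference of Rtp4 from SCR in HS, -0.19, was not called (adjusted p = 0.134).

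Bst2 (tetherin), which holds budding virus at the cell surface, read 9.96, 9.84 and 9.79 in SCR Cont, 10.08, 10.21 and 10.19 in HSF1-KD Cont and 9.50, 9.26 and 9.20 in SSBP1-KD Cont, and 10.08, 10.08 and 10.02 in SCR HS, 10.05, 10.05 and 10.09 in HSF1-KD HS and 9.53, 9.64 and 9.44 in SSBP1-KD HS. The SSBP1-KD arrays were lowest at both temperatures, while the HSF1-KD arrays lay above SCR in Cont and among the SCR arrays in HS. The HSF1-KD difference was 0.29 in Cont (SE 0.0737, adjusted p = 0.0122) and 0.00 in HS (adjusted p = 0.999), and the former was lost without the third SCR array (0.26, adjusted p = 0.0602) or the second HSF1-KD array (0.27, adjusted p = 0.0535). The SSBP1-KD difference was -0.54 in Cont and -0.52 in HS (adjusted p = 8.48e-05 and 0.000108). Ifi35 was called lower in SSBP1-KD Cont, at -0.39 and was not called in HSF1-KD (0.07 in Cont), and its SSBP1-KD call in HS was lost without the first SCR HS array (-0.16, adjusted p = 0.0569).

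Gbp3, a guanylate-binding GTPase that attacks pathogen vacuoles, read 8.87, 8.81 and 8.61 in SCR Cont, 9.47, 9.56 and 9.55 in HSF1-KD Cont and 8.29, 8.47 and 8.27 in SSBP1-KD Cont, and 8.78, 8.68 and 8.63 in SCR HS, 9.49, 9.64 and 9.53 in HSF1-KD HS and 8.30, 8.31 and 8.32 in SSBP1-KD HS. The groups did not overlap at either temperature. It was 1.7-fold higher in HSF1-KD Cont (SE 0.0707 on the log2 scale, adjusted p = 4.86e-06) and 1.34-fold lower in SSBP1-KD Cont (adjusted p = 0.000476) than in SCR Cont.

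The chemokines Cxcl10 and Ccl5, which draw T cells to inflamed tissue, were bright, at percentiles 96.2 and 93 of all probe sets. Cxcl10 read 12.16, 12.19 and 12.16 in SCR Cont, 12.50, 12.52 and 12.58 in HSF1-KD Cont and 11.46, 11.58 and 11.55 in SSBP1-KD Cont, and 12.07, 11.84 and 12.20 in SCR HS, 12.33, 12.49 and 12.38 in HSF1-KD HS and 11.49, 11.64 and 11.67 in SSBP1-KD HS. Ccl5 read 11.14, 11.14 and 11.04 in SCR Cont, 12.01, 11.99 and 12.03 in HSF1-KD Cont and 11.29, 11.32 and 11.26 in SSBP1-KD Cont, and 10.94, 10.71 and 10.94 in SCR HS, 11.80, 11.73 and 11.70 in HSF1-KD HS and 11.27, 11.27 and 11.18 in SSBP1-KD HS. Cxcl10 was above SCR in HSF1-KD and below it in SSBP1-KD on every array, whereas Ccl5 was above SCR in both knockdowns and highest in HSF1-KD. The HSF1-KD differences from SCR in Cont were 0.36 for Cxcl10 (SE 0.0775, adjusted p = 0.0043) and 0.90 for Ccl5 (SE 0.0592, adjusted p = 3.41e-07), and those of SSBP1-KD were -0.64 (adjusted p = 3.13e-05) and 0.18 (adjusted p = 0.0347). The last of these was not called without the second or the third SCR array or the first or second SSBP1-KD array (0.15 to 0.20, adjusted p = 0.0554 to 0.138), and in HS it was 0.38 (adjusted p = 0.000267).

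Among the antigen processing genes, Tap1 was lower in both knockdowns and the others were not called in HSF1-KD. Tap1, a chain of the peptide transporter of the endoplasmic reticulum, read 9.41, 9.52 and 9.45 in SCR Cont, 9.25, 9.24 and 9.30 in HSF1-KD Cont and 8.76, 8.88 and 8.63 in SSBP1-KD Cont, and 9.31, 9.34 and 9.40 in SCR HS, 9.09, 9.15 and 8.996 in HSF1-KD HS and 8.64, 8.72 and 8.69 in SSBP1-KD HS. Both knockdowns lay below SCR, and SSBP1-KD lay below HSF1-KD, with no overlap. The differences from SCR in Cont were -0.70 in SSBP1-KD (SE 0.0604, adjusted p = 1.49e-06) and -0.20 in HSF1-KD (adjusted p = 0.0387), of which the latter was lost on leaving out any of 7 arrays (-0.21 to -0.16, adjusted p = 0.0507 to 0.139), and in HS the HSF1-KD difference was -0.27 (adjusted p = 0.00515). Psmb9 and Psmb8, subunits of the immunoproteasome, were not called in HSF1-KD at either temperature. Psmb8 was called lower in SSBP1-KD Cont, at -0.28 (adjusted p = 0.00449), and the SSBP1-KD differences of Psmb9 were 0.04 in Cont and 0.04 in HS, neither of them called. Psmb9, whose start lies head to head with that of Tap1, overlapped between all groups.

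**Figure D3:**
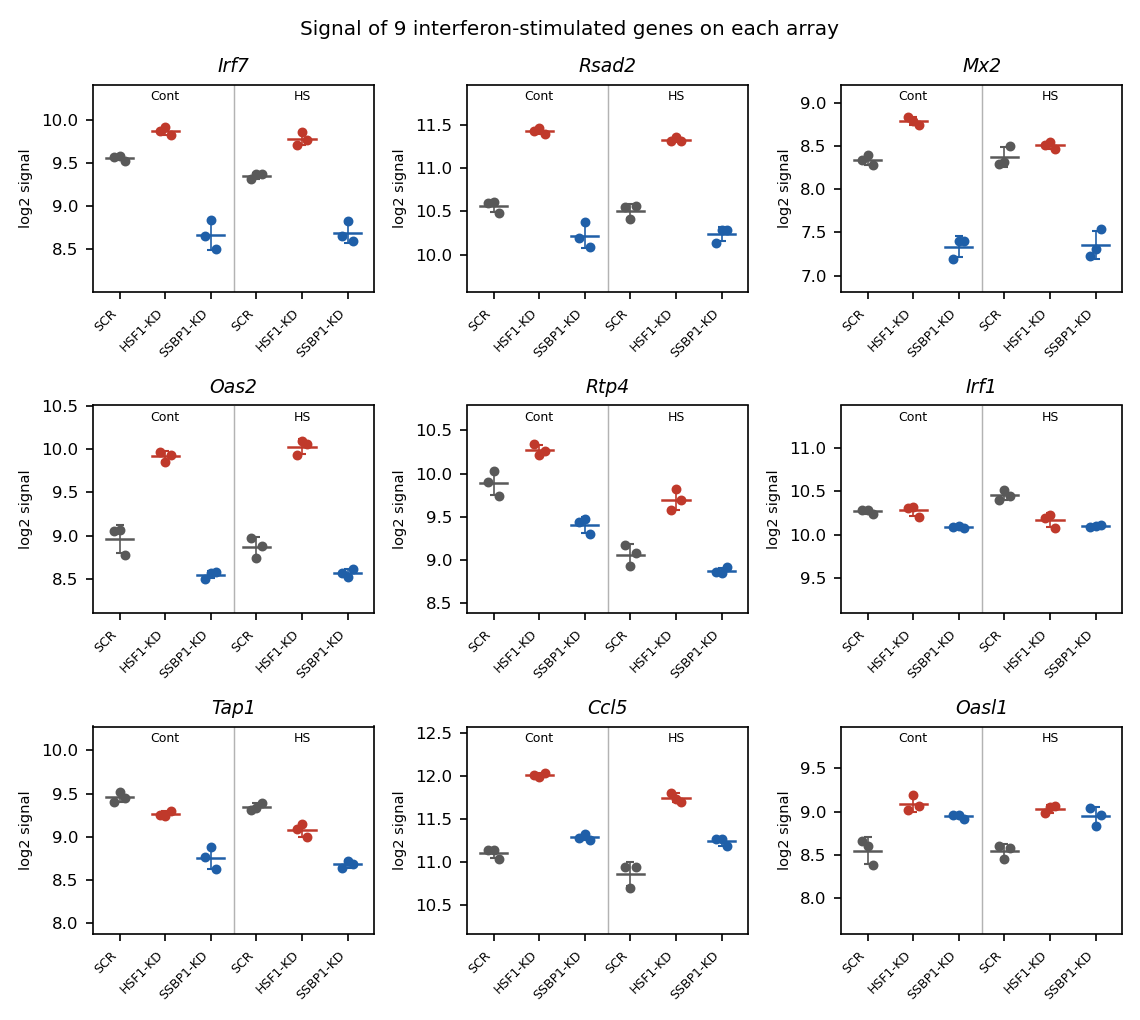
Log2 signal of 9 genes on each array (points), with the group mean (line) and SD (bar, 3 arrays), for SCR (grey), HSF1-KD (red) and SSBP1-KD (blue) in Cont and HS; every panel spans the same range of log2 units. Irf7, Rsad2, Oas2 and Rtp4 run from HSF1-KD down through SCR to SSBP1-KD at both temperatures, and Mx2 does in Cont, while Irf1, Tap1, Ccl5 and Oasl1 have other orders.

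With 1 h of heat shock, the counts of these genes called lay near the shares over all genes, and nothing particular to them is read from the counts. In SCR cells, 5 of 36 were lower in HS than in Cont (8.34% of all genes were) and 1 was higher (7.63% of all genes were), with a median difference of -0.07 against -0.01 over all genes. Those that fell were Rtp4 (-0.83, adjusted p = 8.03e-06), Samd9l (-0.58, adjusted p = 8.05e-05), Ifit1 (-0.56, adjusted p = 9.72e-05), Xaf1 (-0.28, adjusted p = 0.00341) and Ccl5 (-0.24, adjusted p = 0.0111). Irf1 rose by 0.18 (adjusted p = 0.0143), a call that was lost without the third SCR Cont array (0.17, adjusted p = 0.0576) or the second SCR HS array (0.16, adjusted p = 0.0712). In HSF1-KD cells, 6 fell (10.8% of all genes) and 1 rose (10.6% of all genes): Rtp4 (-0.58), Mx2 (-0.28), Samd9l (-0.28), Ccl5 (-0.27), Ifit1 (-0.26) and Tap1 (-0.19) were lower, and Trim25 (0.28) was higher. In SSBP1-KD cells, 2 fell (2.82% of all genes), Rtp4 (-0.53) and Samd9l (-0.39), and 1 rose (4.08% of all genes), Trim25 (0.19). Rtp4 and Samd9l were the 2 genes called lower with heat in all 3 kinds of cell. These small counts moved with single arrays: without the first SSBP1-KD Cont array 3 genes rose in SCR and 3 in HSF1-KD, and 2 rose in HSF1-KD without the third SCR Cont, the first SCR HS, the first or the third HSF1-KD Cont or the third HSF1-KD HS array. In HSF1-KD 3 fell without the first or second HSF1-KD Cont or the first or the third HSF1-KD HS array, and in SSBP1-KD 0 rose without the first or second SSBP1-KD HS array. The HSF1-KD calls of Ifit1, Mx2 and Tap1 were each lost on leaving out any of several HSF1-KD arrays (adjusted p up to 0.094, 0.0732 and 0.147), that of Tap1 also without the third SSBP1-KD HS array (adjusted p = 0.0509), and that of Samd9l without the second HSF1-KD Cont array (adjusted p = 0.0502). The SSBP1-KD call of Trim25 was lost without the first SSBP1-KD Cont array or any SSBP1-KD HS array (0.14 to 0.20, adjusted p = 0.0598 to 0.0868).

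The heat response of none of the 36 genes was called different from that in SCR. For HSF1-KD the limma test of the interaction called 0 of 36 (0.346% of all genes, in either direction), and at an unadjusted p under 0.05 the difference in response was positive for 7 genes and negative for 3. For SSBP1-KD it called 0 of 36 (0.492% of all genes) and, at an unadjusted p under 0.05, gave a positive difference for 5 and a negative one for 1. A positive difference is not a larger response: Ifit1 had heat differences of -0.56 in SCR and -0.20 in SSBP1-KD. The same interaction fitted gene by gene to the 4 groups concerned, with no shared estimate of the spread, called 0 in both. The interaction of Irf1 in HSF1-KD, -0.30, was the nearest, and it was called after a further quantile normalization (-0.31, adjusted p = 0.0355) and among brighter probe sets alone (adjusted p = 0.033).

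The genes upstream of these targets were read from lists of the pathway. The 15 ligand genes measured lay at percentiles 5.6 to 70.5 of all probe sets. Ifnb1, which encodes interferon beta, lay at percentile 19.8 and read 6.10, 6.32 and 6.37 in SCR Cont, 6.05, 6.17 and 6.28 in HSF1-KD Cont and 6.57, 6.43 and 6.51 in SSBP1-KD Cont. Its SCR and HSF1-KD arrays overlapped and its SSBP1-KD arrays lay slightly above both. Of the 15 ligand genes, 0 were called by limma in HSF1-KD against SCR at either temperature. Over all genes, 10.9% were called higher and 10.1% lower in Cont, and 13.1% and 10.7% in HS. At an unadjusted p under 0.05, 1 ligand was higher in Cont and 1 lower in HS. In SSBP1-KD, 1 was called higher at each temperature, Ifng in Cont (0.26) and Ifna13 in HS (0.47). Over all genes these shares were 14.6% and 14.3%, and 0 ligands were called lower (16.5% and 14.4% of all genes). Between the knockdowns, SSBP1-KD was called higher for Ifnb1 in Cont (0.33, adjusted p = 0.0464) and Ifna2 in HS (0.26, adjusted p = 0.0171). No other ligand was called there (12.9% and 11.6% of all genes called higher).

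The receptor genes were lower in SSBP1-KD cells. All 6 were called lower in SSBP1-KD Cont (16.5% of all genes) and 5 in SSBP1-KD HS (14.4% of all genes), where Ifngr1 was not called. Ifnar1, the first chain of the type I receptor, read 11.06, 11.02 and 11.17 in SCR Cont, 11.06, 11.06 and 11.21 in HSF1-KD Cont and 10.43, 10.47 and 10.47 in SSBP1-KD Cont. Ifnar2, the second chain, read 11.82, 11.73 and 11.98 in SCR Cont, 11.84, 11.68 and 11.80 in HSF1-KD Cont and 11.35, 11.34 and 11.27 in SSBP1-KD Cont. For both chains the SSBP1-KD arrays lay below all others and the SCR and HSF1-KD arrays overlapped. The SSBP1-KD differences in Cont were -0.62 for Ifnar1 (SE 0.0573, adjusted p = 2.51e-06) and -0.52 for Ifnar2 (SE 0.0682, adjusted p = 5.87e-05). Il10rb and Ifnlr1, the chains of the type III receptor, differed by -0.47 and -0.29, and Ifngr1 and Ifngr2, those of the interferon gamma receptor, by -0.24 and -0.34. In HSF1-KD, 1 receptor gene was called at each temperature, Ifngr2 in Cont (-0.19) and Ifnar2 in HS (-0.22), both lower. Over all genes, 10.1% were called lower in Cont and 10.7% in HS, and the receptor number is too small to set apart from those shares.

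Among 8 Janus kinase and STAT genes, 1 was called lower in HSF1-KD Cont (10.1% of all genes), and 2 were called lower and 1 higher in SSBP1-KD Cont (16.5% and 14.6% of all genes), numbers too small to set apart from those shares. Stat3, a factor of many cytokine receptors, was lower in SSBP1-KD Cont, at -0.38 (adjusted p = 1.1e-05) and was not called in HSF1-KD Cont (-0.11). Tyk2, a kinase of the type I receptor, was not called against SCR in either knockdown but differed between them by -0.29. Of 17 genes for sensing and induction, 4 were called higher and 3 lower in HSF1-KD Cont (10.9% and 10.1% of all genes), and 3 higher and 6 lower in SSBP1-KD Cont (14.6% and 16.5% of all genes). Tlr3, the endosomal receptor for double-stranded RNA, read 9.40, 9.47 and 9.31 in SCR Cont, 10.03, 9.92 and 10.05 in HSF1-KD Cont and 8.88, 9.08 and 8.94 in SSBP1-KD Cont, in the order seen for most of the 36 genes and with no overlap. Its differences from SCR were 0.61 (SE 0.0603, adjusted p = 9.25e-06) and -0.43 (adjusted p = 0.000115). Ikbke, a kinase that activates IRF3 and IRF7, was called higher in HSF1-KD Cont by 0.43 and was not called in SSBP1-KD Cont (0.11), while Irf3, which starts interferon beta transcription, was called lower in SSBP1-KD Cont, at -0.30 and was not called in HSF1-KD Cont (-0.06). Of 13 negative regulators, 2 were called higher and 1 lower in HSF1-KD Cont (10.9% and 10.1% of all genes), and 3 each way in SSBP1-KD Cont (14.6% and 16.5% of all genes), which is near the shares over all genes.

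**Figure D4:**
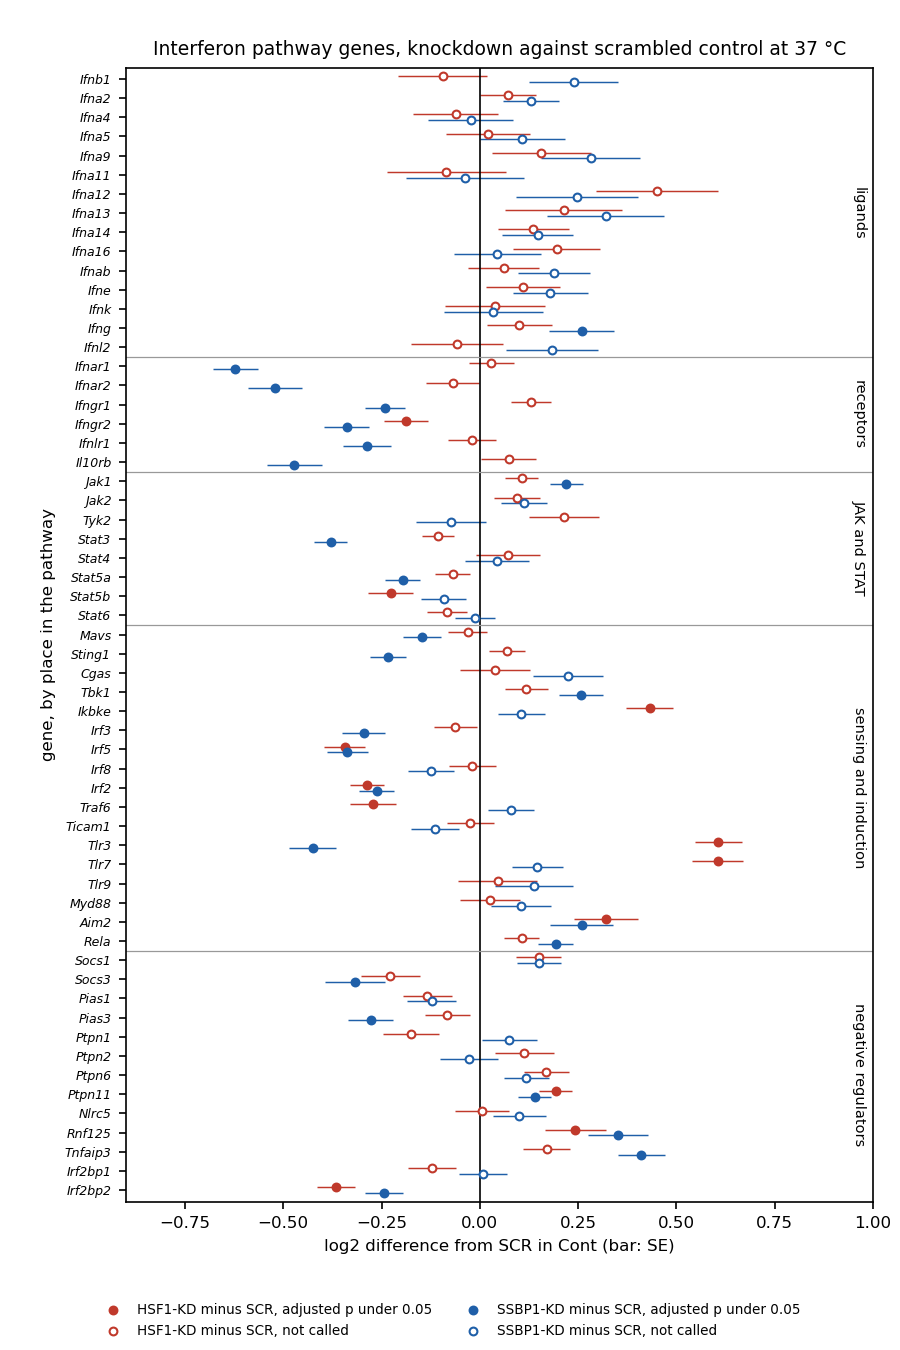
Log2 difference from SCR in Cont for interferon pathway genes (rows, by place in the pathway); red points are HSF1-KD and blue points SSBP1-KD, bars are 1 SE, and filled points have an adjusted p under 0.05. Nearly all ligand points are open, all 6 blue receptor points are filled and lie between -0.62 and -0.24, and Tlr3 has a filled point on each side of 0.

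A further 59 interferon-stimulated genes outside the 36 were measured. In HSF1-KD Cont 27 were called higher (10.9% of all genes) and 2 lower (10.1% of all genes), with a median of 0.15 against 0.03 over all genes, and in SSBP1-KD Cont 35 were called lower (16.5% of all genes) and 1 higher (14.6% of all genes), with a median of -0.24 against 0.05. In HS the counts were 30 higher and 3 lower in HSF1-KD (13.1% and 10.7% of all genes) and 26 lower and 2 higher in SSBP1-KD (14.4% and 14.3% of all genes). The widest direct differences of SSBP1-KD from HSF1-KD in Cont were those of Helz2, a helicase (-1.16), Oas1b, a gene of flavivirus resistance (-1.15), and Gbp7 (-1.05). Next came Cd274, which encodes PD-L1 (-0.93), Ifitm3, which blocks virus entry (-0.89), and Ddx60 (-0.88). They were made up differently: Cd274 and Ddx60 were higher in HSF1-KD Cont by 0.95 and 0.74 and not called in SSBP1-KD Cont (0.02 and -0.14), whereas Ifitm3 was lower in SSBP1-KD Cont, at -0.78 and not called in HSF1-KD Cont (0.10).

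Markers of other cells were read beside these differences. The mean of 10 macrophage markers, dim at a median percentile of 29.8, was 6.99 to 7.06 on the SCR Cont arrays, 7.13 to 7.23 on the HSF1-KD Cont arrays and 7.11 to 7.32 on the SSBP1-KD Cont arrays, with 3 called higher in HSF1-KD (10.9% of all genes), 4 called higher in SSBP1-KD (14.6% of all genes) and 0 called lower in either. In HS it was 6.96 to 7.08 in SCR, 7.13 to 7.23 in HSF1-KD and 7.07 to 7.18 in SSBP1-KD, where SSBP1-KD overlapped SCR. The mean of the fibroblast markers was 11.70 to 11.77 in SCR Cont, 11.49 to 11.55 in HSF1-KD Cont and 11.30 to 11.41 in SSBP1-KD Cont, with 6 of 10 called lower in HSF1-KD (10.1% of all genes), 7 called lower in SSBP1-KD (16.5% of all genes) and 1 called higher in each (10.9% and 14.6% of all genes). Dendritic, lymphocyte, endothelial and epithelial markers had 0 to 2 genes called in either direction in each knockdown in Cont. Bst2 stands on the dendritic list as well. In Cont the endothelial mean also lay above SCR (6.902 to 6.926) in HSF1-KD (7.045 to 7.081) and in SSBP1-KD (6.956 to 7.259). The lymphocyte mean did so too in Cont but overlapped SCR in HS. A higher mean was therefore not particular to macrophage markers. The dendritic mean was higher in HSF1-KD Cont and overlapped SCR in SSBP1-KD Cont. The epithelial mean overlapped SCR in HSF1-KD Cont and lay below it in SSBP1-KD Cont. The part of these markers in the differences of the 36 genes was not tested.

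The size of the difference was then set beside the promoter windows, as a description. The 11 genes with a response element core in the window had a median difference of 0.32 in HSF1-KD Cont and -0.35 in SSBP1-KD Cont, and the 15 genes with a window and no match had 0.29 and -0.29. In HSF1-KD HS the medians against SCR were 0.45 with a match and 0.35 without one. In SSBP1-KD HS the order was reversed, at -0.27 with a match and -0.35 without one. Between the knockdowns the medians were -0.64 with a match and -0.51 without one in Cont, and -0.62 and -0.58 in HS. The ranges overlapped widely, from -1.21 to -0.26 with a match and from -1.21 to 0.11 without one in Cont. Bst2, with the single heat shock element match printed above, was among the genes in which HSF1-KD and SCR overlapped in HS.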

How the data were processed

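RNA of 18 samples of mouse embryonic fibroblasts, 3 in each of 6 groups, had been hybridized to Affymetrix Mouse Gene 1.0 ST arrays. The deposited values are log2 signals that the authors normalized with RMA, which corrects background, quantile-normalizes and summarizes probes, in Partek 6.5 per the submitters' processing notes. RMA compresses differences between dim probe sets, and values are relative to the other genes of an array. Columns of no sample were absent (0 left unused). The table holds 35557 probe sets, of which 21789 carried 1 gene symbol, 1621 several and 12147 none in the platform annotation. Of those with 1 symbol, 21698 were matched to current RefSeq names (assembly GRCm38.p6), giving 19938 symbols, and the brightest probe set stood for a gene.

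All probe sets of the 18 arrays were fitted with limma 3.58.1 (lmFit and eBayes, R 4.3.3) with the 6 groups as terms (12 residual and 2.36 prior degrees of freedom). P-values were adjusted by Benjamini-Hochberg over all probe sets, and a gene was called at an adjusted p under 0.05. The fit was tested on simulated data. Shares of all genes called were counted over the 19938 symbols. An adjusted p is always limma's unless another test is named; SE and SD are on the log2 scale. No depth exists for arrays, and their number limits the precision.

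The members and the lists were chosen with earlier results of these data known, among them the opposite movement of the members in the knockdowns. Values on every array are given for the 4 transcription factors and for up to 12 members called in both knockdowns against SCR, those with the largest difference between the knockdowns in Cont; Oasl1, Ccl5 and Tap1 were added after their values were seen. All ligands and receptors, and up to 6 genes of the other pathway lists by the same difference, could be named. Promoter windows are RefSeq's, matched by symbol in Python 3.11.15. Alternatives were other normalizations, filters, array weights, the replicate block, leaving out each array, and the methods' t-test.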

Additional observations from a re-analysis of the deposited data

Results flagged for a closer look

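The heat response of Socs3, a suppressor of cytokine receptor signalling on the list of negative regulators, differed between SSBP1-KD and SCR by the test of the interaction itself. Heat shock raised Socs3 by 0.72 on the log2 scale in SCR and by 0.38 in HSF1-KD, and its difference in SSBP1-KD was 0.17 (limma, adjusted p = 0.195). The response in SSBP1-KD minus that in SCR was -0.55 (SE 0.106, limma, adjusted p = 0.038). That in HSF1-KD minus that in SCR was -0.34 and was not called (adjusted p = 0.352). Over all genes, 0.492% were called in the SSBP1-KD interaction, in either direction. Among the listed interferon-stimulated and pathway genes Socs3 was the only call there, and it was picked out for that reason. A lone call among that many genes is too few to set apart from that share. Socs3 had 2 probe sets, of which the brighter was used, and the other is not reported here.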

How the results depend on the processing

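None of the differences of the 36 genes changed direction while called, under any of the alternatives run; 10742 results for single genes kept their side of the threshold, 231 lost and 93 gained a call. The direct difference between the knockdowns gave 29 to 34 genes lower in Cont and 31 to 33 in HS. In what follows, the counts that moved by over 1.5 times are given; the cause was not tested, beyond the fewer arrays that enter the methods' t-test and the fits to the compared arrays. The methods' t-test, after Benjamini-Hochberg, called 14 genes higher and 0 lower in HSF1-KD Cont, 0 lower in HSF1-KD HS, 0 higher and 14 lower in SSBP1-KD Cont and 1 higher in SSBP1-KD HS, and with heat shock 0 higher in SCR and 0 higher and 0 lower in SSBP1-KD. At an unadjusted p under 0.05 it gave 27 higher and 1 lower in HSF1-KD Cont, 27 and 2 in HSF1-KD HS, 2 and 30 in SSBP1-KD Cont and 3 and 26 in SSBP1-KD HS. Fits to the compared arrays alone called 0 lower in HSF1-KD Cont and 1 higher in SSBP1-KD Cont, and with heat 0 higher in SCR and 0 higher and 1 lower in SSBP1-KD. These fits also cut larger counts, by no more than 1.5 times: 21 higher in HSF1-KD Cont against 26, and 20 lower in SSBP1-KD Cont against 30. Array weights gave 0 lower in HSF1-KD Cont, and with heat 4 higher in SCR, 3 in HSF1-KD and 2 in SSBP1-KD. Equal array medians gave 1 higher in SSBP1-KD Cont. A further quantile normalization gave 2 higher with heat in each of SCR, HSF1-KD and SSBP1-KD and 1 interaction called in HSF1-KD, that of Irf1. Brighter probe sets alone, which drop Mx1 and Psmb8, gave 3 higher with heat in SCR, 3 in HSF1-KD and the same interaction (1). Probe sets with 1 symbol gave 3 higher with heat in HSF1-KD, a trended and robust prior 2 in SCR and 2 in HSF1-KD, and the mean of a gene's probe sets 0 in SCR.

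Leaving out each array in turn gave 20 to 27 higher and 0 to 1 lower in HSF1-KD Cont, 22 to 26 higher and 2 lower in HSF1-KD HS, 1 to 2 higher and 26 to 31 lower in SSBP1-KD Cont, and 2 higher and 19 to 24 lower in SSBP1-KD HS. Between the knockdowns it gave 33 to 34 lower in Cont, 32 to 33 in HS and 0 higher in both. With heat it gave 0 to 3 higher and 5 to 7 lower in SCR, 1 to 3 and 3 to 6 in HSF1-KD, and 0 to 1 and 2 in SSBP1-KD, and 0 interactions. The array that stood apart, the first of SSBP1-KD Cont, left 28 lower in SSBP1-KD Cont when omitted.

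The replicate numbers did not pair the arrays: over 45 pairs of the same number, deviations from the group means correlated at -0.276 to 0.171, 6 of them above 0.1. With the replicate number as a block, 25 genes were higher and 1 lower in HSF1-KD Cont, 24 and 2 in HSF1-KD HS, 2 and 30 in SSBP1-KD Cont, and 2 and 23 in SSBP1-KD HS, and 33 and 32 were lower between the knockdowns in Cont and HS. Each group had 3 arrays, 1 hairpin per target was used, and low signal limits dim genes such as Mx1 (percentile 26.9 of all probe sets).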
